A study of Raphidocelis subcapitata with 45 samples.

Results

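The step from 12249 to 30623 µg/L sertraline, the last of the concentration series, was examined in Raphidocelis subcapitata. This green alga lives in fresh water as single cells and is a standard organism for testing the toxicity of chemicals to primary producers. It was represented by 6 of the 41 libraries in the deposited table, chosen by their labelled concentration alone. These were 3 libraries at 30623 µg/L (A, C and D) and 3 at 12249 µg/L (A, B and C), a 2.5-fold step in nominal concentration. The control took no part in the test of the step. Library A at 30623 µg/L is shown apart from C and D throughout.

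Sertraline is an antidepressant that blocks the serotonin transporter in animals. It is also a cationic amphiphilic compound, a class known to gather in membranes and acidic compartments of cells. The title of the study speaks of a burst in reactive oxygen species, by-products of respiration and photosynthesis that oxidise lipids, proteins and nucleic acids when they accumulate.

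All groups were cells of 1 alga, labelled by its supplier (Carolina Biological), in exponential growth under constant light, and exposed for 24 h in deep-well plates. The groups were 30623 and 12249 µg/L sertraline hydrochloride with 3 libraries each and, as background, 50, 125, 314, 784, 1960 and 4900 µg/L and a solvent control with 5 each. All wells carried solvent, and RNA came from homogenates pooled over 3 plates. No separate cultures are named in the labels, and p-values therefore speak for the spread among libraries, possibly a technical one, and not among cultures. Libraries B and E at 30623 and D and E at 12249 µg/L are also labelled but have no values in the deposited table, so they could not be analysed here. Values are normalised expression on a log scale read as log2, for 7291 genes, and a difference of 1 is then a doubling. The medians of the 6 libraries lay between 4.56 and 4.73, and read depth is unknown. Each library is scaled to itself, so a gene's level is relative to the rest of its library, and fewer cells and less RNA per cell cannot be told apart.

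Library A at 30623 µg/L stood apart from C and D and lay close to the 12249 µg/L libraries. Across the 7291 genes, its Pearson correlation was 0.858 with C and 0.840 with D at 30623 µg/L, against 0.901, 0.912 and 0.929 with A, B and C at 12249 µg/L. C and D at 30623 µg/L correlated at 0.894 with each other and between 0.776 and 0.839 with the 12249 µg/L libraries. These correlations are descriptions over genes that share one normalisation.

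The library most like A at 30623 µg/L among all 41 was C at 12249 µg/L, and the reverse also held. C at 12249 µg/L correlated at 0.929 with A at 30623 µg/L, above its 0.911 and 0.909 with B and A of its own group. A nearest neighbour in another group was common in the series, with 18 of 41 libraries, but for A at 30623 µg/L the gap to its own group was the widest of the 6. Results are therefore given with and without A at 30623 µg/L.

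The same order held in the size of the differences between libraries. The median gene differed by 0.54 between A and C and by 0.55 between A and D at 30623 µg/L, on the log2 scale, against 0.36 between C and D. A differed from the 3 libraries at 12249 µg/L by a median of 0.45, 0.41 and 0.36. Relative to the 12249 µg/L mean, 426 genes lay at least 1 away in A at 30623 µg/L, 1567 in C and 1766 in D. Single libraries at 12249 µg/L had 295 (A), 223 (B) and 641 (C) genes at least 1 away from the mean of their other two, so the count in A at 30623 µg/L was within the range of the 12249 µg/L libraries, although set against a mean of 3 libraries and not of 2.

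Each library was also placed on the axis of the step, where the 12249 µg/L mean is 0 and the 30623 µg/L mean is 1, with a library left out of the mean of its own group. On this axis A at 30623 µg/L stood at 0.27, C at 1.03 and D at 1.10. At 12249 µg/L, A stood at -0.030, B at 0.20 and C at 0.44. Library A at 30623 µg/L was inside the range of the 12249 µg/L libraries on this axis, whose upper end includes A when those are placed, and C and D were outside it. A second axis ran from the 12249 µg/L mean to the mean of C and D. For A at 30623 µg/L this is the same calculation as on the first axis, where A was left out of its group mean, so its 0.27 is not a second result. On the second axis A, B and C at 12249 µg/L stood at -0.11, 0.022 and 0.090. No library was left out of the means on this second axis. The 12249 µg/L libraries therefore lie around 0 by construction, and their range is no reference for A. On the first axis the 5 control libraries lay between 0.41 and 0.49 and the 5 at 4900 µg/L between -0.066 and 0.40. The control libraries were thus above A and B at 12249 µg/L, but C at 12249 µg/L lay within their range. Libraries outside the step were set against the full means of both groups, so their placing was not quite the same.

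**Figure D1:**
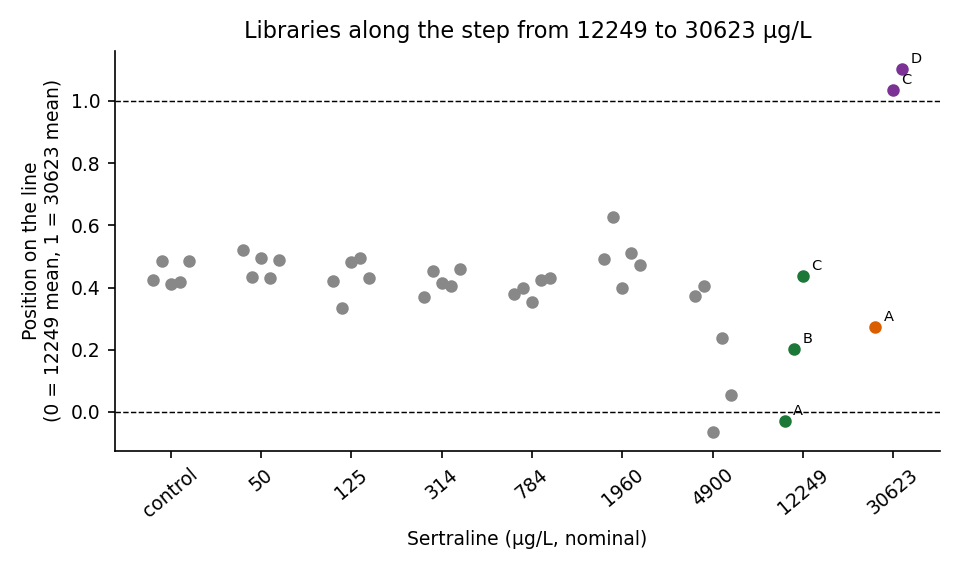
Position of each of the 41 libraries (points) on the axis of the step (0 is the 12249 µg/L mean and 1 the 30623 µg/L mean), by nominal sertraline concentration in µg/L, with letters for the 6 libraries of the step, orange for A at 30623, purple for C and D and green for 12249 µg/L. C and D at 30623 µg/L lie at 1.03 and 1.10, and A at 0.27 lies among the 12249 µg/L libraries.

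With 3 libraries on each side, 211 of 7291 genes (2.89%) had an adjusted p under 0.05 by limma's moderated test of the step. At 30623 µg/L 102 of them (1.40%) were higher and 109 (1.49%) were lower. The genes that rose had a median log2 difference of 1.46, with sizes from 1.23 to 1.89 and a median standard error of 0.37. The genes that fell had a median of -1.40, with sizes from 1.18 to 2.29 and a median standard error of 0.36. The median over all genes was 0.013. No change under 1.18 was called in either direction. Of the 102 genes that rose, 99 had all 3 libraries at 30623 µg/L above all 3 at 12249 µg/L. Of the 109 that fell, 104 had them all below. Among all genes 1678 (23.0%) were separated in this way, 905 (12.4%) upward and 773 (10.6%) downward.

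The number of called genes depended on library A at 30623 µg/L. Without it, C and D differed from the 3 libraries at 12249 µg/L in 1594 genes (21.9%), of which 737 (10.1%) were higher and 857 (11.8%) lower. All of the 102 and 109 genes were among these. With C at 12249 µg/L left out as well, 2196 genes (30.1%) differed, 1016 (13.9%) higher and 1180 (16.2%) lower. This last fit was not planned beforehand. It leaves out the libraries of the step that were most like each other across the groups, so a higher count partly follows from that choice.

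Leaving out any other library also moved the counts. There were 0 higher and 1 lower without C at 30623 µg/L, and 0 and 4 without D. There were 0 and 0 without A at 12249 µg/L, 14 and 15 without B, and 169 and 156 without C. In these limma fits 958, 919, 894, 1152 and 1665 genes had an unadjusted p under 0.05. With the spread taken from all 41 libraries, 2089 genes (28.7%) were called, 942 (12.9%) higher and 1147 (15.7%) lower. The median SD of a gene was 0.42 at 30623 and 0.34 at 12249 µg/L, each over 3 libraries, against 0.24 in the 5 control libraries. Under quantile scaling of the 6 libraries, which gives all of them one distribution, 50 genes were higher and 31 lower, and 36 and 29 of them were among the 102 and 109.

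**Figure D2:**
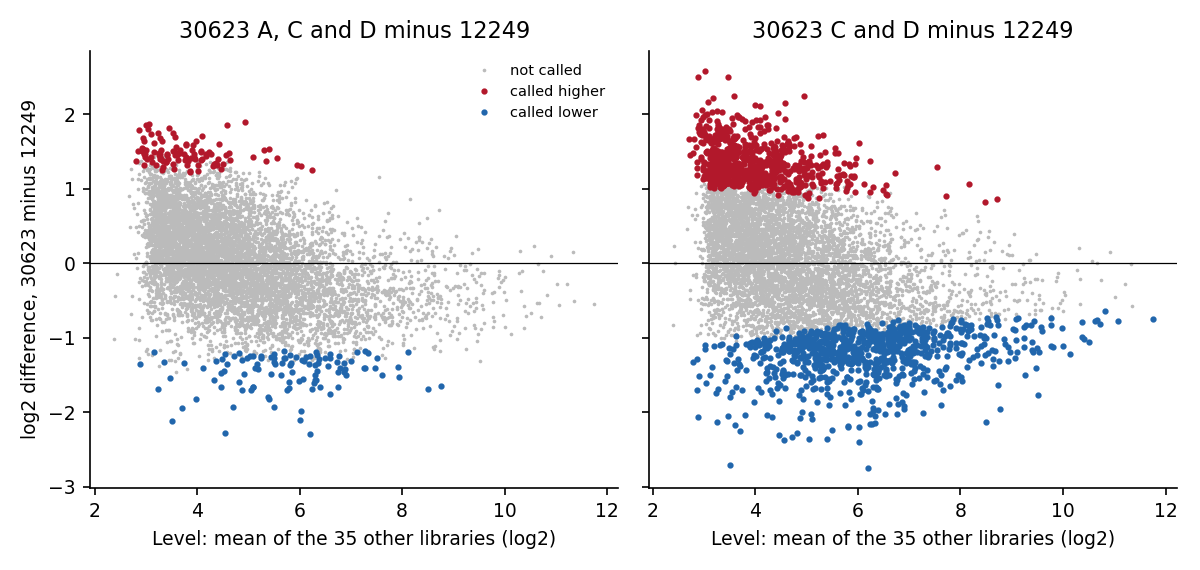
log2 difference between 30623 and 12249 µg/L of each of the 7291 genes (points) against its level, the mean of the 35 libraries outside the step, with all 3 libraries at 30623 µg/L (left) and with C and D only (right). Red and blue points passed an adjusted p of 0.05, with 102 higher and 109 lower on the left and 737 and 857 on the right, and the red points lie at lower levels than the blue ones.

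In the genes called with C and D only, A at 30623 µg/L differed less from the 12249 µg/L mean than C and D did. For the 737 genes higher in C and D, the median difference from the 12249 µg/L mean was 0.42 in A, 1.28 in C and 1.34 in D. For the 857 genes lower in C and D it was -0.26 in A, -1.14 in C and -1.20 in D. A lay nearer to the 12249 µg/L mean than to the mean of C and D, or beyond the 12249 µg/L mean, for 71.1% of the genes that rose, 79.8% of the genes that fell and 63.4% of all genes. Its median place between the 2 means was 0.31 for the genes that rose, with quartiles of 0.084 and 0.54, and 0.22 for the genes that fell, with quartiles of 0.0071 and 0.45. These medians and places use the same C, D and 12249 µg/L libraries that chose the 737 and 857 genes, while A had no part in that choice. Some shortfall of A therefore follows from the choice of the genes.

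For the 102 and 109 genes called with A included, A was further along. Its median difference from the 12249 µg/L mean was 0.98 for the genes that rose, against 1.66 in C and 1.70 in D. For the genes that fell it was -0.79 in A, -1.67 in C and -1.73 in D. A was one of the libraries that chose these genes, and none of them had A on the other side of the 12249 µg/L mean.

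Weakly expressed genes were higher and strongly expressed genes lower at 30623 µg/L, and this pattern belonged to C and D. Genes were divided into 10 bins by their mean level in the 35 libraries outside the step, which keeps the noise of the 6 libraries out of the bins. In the lowest bin, with levels from 2.39 to 3.33, the median difference from the 12249 µg/L mean was 0.16 in A, 0.58 in C and 0.55 in D at 30623 µg/L. In the highest bin, with levels from 6.64 to 11.8, it was -0.091 in A, -0.70 in C and -0.58 in D. Single libraries at 12249 µg/L, set against the mean of their other two, ran from -0.18 to 0.21 in the lowest bin and from -0.12 to 0.10 in the highest. A at 30623 µg/L lay within those ranges in both bins, and C and D lay outside them.

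The called genes followed the same order. Of the 102 genes that rose, 89 were in the lower 5 bins, and of the 109 that fell, 91 were in the upper 5. The lowest bin held 34 genes that rose and 3 that fell, out of 730, and the highest held 0 and 23, out of 729. For C and D only, the lowest bin held 180 higher and 15 lower genes and the highest 6 and 280. The median level was 3.62 for the genes that rose, 5.81 for those that fell and 4.56 for all genes.

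**Figure D3:**
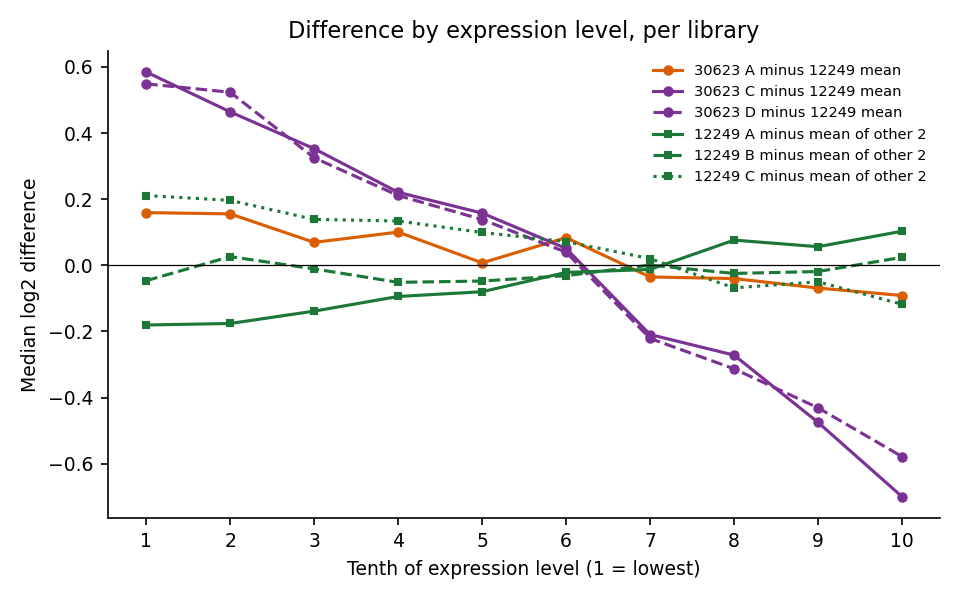
Median log2 difference of the genes in each of 10 bins of expression level, from lowest (1) to highest (10), for A, C and D at 30623 µg/L minus the 12249 µg/L mean, and for each 12249 µg/L library minus the mean of the other two. C and D lie at 0.58 and 0.55 in the lowest bin and at -0.70 and -0.58 in the highest, and A stays within the lines of the 12249 µg/L libraries at both ends.

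The range of expression within a library was correspondingly narrow in C and D. The SD across genes was 1.48 in A, 1.16 in C and 1.24 in D at 30623 µg/L, against 1.53 in A, 1.49 in B and 1.51 in C at 12249 µg/L. All 3 libraries at 30623 µg/L were below all 3 at 12249 µg/L, and A was close to them. The means were 1.29 ± 0.16 at 30623 and 1.51 ± 0.023 at 12249 µg/L (SD, n = 3 each), and a two-sided exact permutation test gave p = 0.10, the smallest that 3 against 3 allow. The other 39 libraries of the series, A at 30623 µg/L included, lay between 1.36 and 1.53. With only those genes whose mean reached 5, the difference was -0.11 in place of -0.22 (p = 0.30 in the same exact permutation test). There A at 30623 µg/L, at 1.41, lay above A and B at 12249 µg/L, both at 1.35, so the groups overlapped, and D at 30623 µg/L, at 1.26, lay above the 5 control libraries, at 1.18 to 1.20. The part of this narrower range in the called differences was not tested. Under quantile scaling the median step of the highest bin was -0.065 in place of -0.47, and that of the lowest bin 0.20 in place of 0.42. This scaling gives the libraries the same range, so smaller steps at the ends follow in part by construction and cannot measure that part.

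Of the 109 genes that fell at this step, more than the background share had been higher than the control at 4900 µg/L. The 109 genes stood near the control up to 1960 µg/L, where their median log2 difference from the control mean was 0.0027 with members on both sides. At 1960 µg/L limma called 20 of them higher (18.3%) and 18 lower (16.5%) than the control, against 10.7% and 12.4% of all genes. At 4900 µg/L it was 0.61, at 12249 µg/L 1.08 and at 30623 µg/L -0.40. Library by library, the median was 0.13 in A, -0.64 in C and -0.72 in D at 30623 µg/L, against 1.17 in A, 1.08 in B and 0.91 in C at 12249 µg/L. That these medians did not overlap follows from the choice of the genes in the same 6 libraries. Of the 3 libraries at 30623 µg/L, A lay nearest to the control level. The 4900 µg/L and control libraries had no part in choosing these genes. Choosing genes that fall from 12249 µg/L nevertheless favours genes that are high at 12249 µg/L. The libraries of the 2 groups can be much alike, as A at 12249 µg/L was nearest to E at 4900 µg/L (Pearson correlation 0.949). Some excess at 4900 µg/L therefore follows from the choice, and the shares of all genes do not allow for it. The mean at 4900 µg/L was above the control for 92 of them (84.4%), against 48.4% of all genes. Between those 2 groups limma called 29.7% of all genes. It called 59 of the 109 genes higher and 2 lower at 4900 µg/L, which is 54.1% and 1.83%. Of all genes, 13.5% were higher and 16.3% lower there by the same test, and among the upper 5 bins of level 13.9% and 24.1%.

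For the larger set of 857 genes lower in C and D only, the share called higher at 4900 µg/L was 37.1% and the share called lower 8.87%. For the 1147 genes lower with all libraries setting the spread these shares were 28.0% and 13.3%, their median at 4900 µg/L was 0.15, and 412 of them were below the control already at 12249 µg/L. Of the 109 genes, 65 had a control mean between the 2 groups, so that they were below the control at 30623 µg/L and above it at 12249 µg/L. A further 32 stayed above the control at 30623 µg/L, and 12 were below it already at 12249 µg/L. Over all genes, whatever their direction, the control mean lay between the 2 groups for 1683 of 7291. This is not a like comparison, because the 109 genes were chosen for a large difference, which holds the control mean more often. Among the 102 genes that rose, 43 had it between the 2 groups.

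The genes that rose at this step had medians near the control at most concentrations before it, with members on both sides. The median of the 102 genes lay between -0.087 and 0.056 in the groups from 50 to 784 µg/L. At 1960 µg/L it was 0.33, at 4900 µg/L 0.12, at 12249 µg/L 0.055 (quartiles -0.55 and 0.57) and at 30623 µg/L 1.50. Library by library, it was 1.10 in A, 1.54 in C and 1.79 in D at 30623 µg/L, against -0.24 in A, 0.035 in B and 0.078 in C at 12249 µg/L. This separation follows from the choice of the genes in the same 6 libraries, and A was the lowest of the 3 at 30623 µg/L. Between 4900 µg/L and the control, limma called 14 of the 102 genes higher (13.7%) and 13 lower (12.7%), against 13.5% and 16.3% of all genes and 13% and 8.50% of the lower 5 bins of level. At 1960 µg/L it called 19 higher (18.6%) and 9 lower (8.82%), against 10.7% and 12.4% of all genes (23.1% in all) and 10.3% and 4.66% of the lower 5 bins. The control mean lay below both groups for 53 of the 102 genes, between them for 43 and above both for 6.

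**Figure D4:**
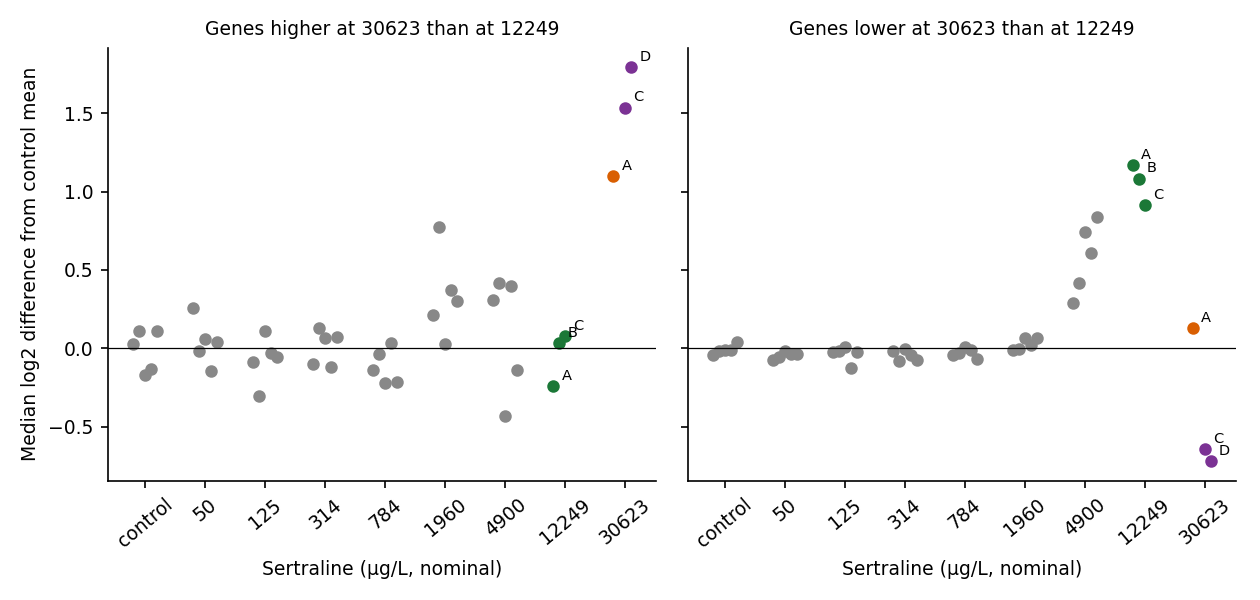
Median log2 difference from the control mean over the 102 genes higher (left) and the 109 genes lower (right) at 30623 than at 12249 µg/L, for each of the 41 libraries (points), by nominal concentration in µg/L. The genes on the right stand above the control at 4900 and 12249 µg/L and at 0.13 (A), -0.64 (C) and -0.72 (D) at 30623 µg/L.

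The table gives identifiers without product names, so no function can be attached to single genes. The 2 genes with the highest and the 2 with the lowest log2 difference among those called and separated between the groups are described. Rsub_08035 fell with A, C and D together. It was 4.29 in A, 4.12 in C and 3.90 in D at 30623 µg/L, against 6.69 in A, 6.54 in B and 5.90 in C at 12249 µg/L. The log2 difference was -2.27 ± 0.35 (SE), a 4.83-fold lower level, and limma gave an adjusted p of 0.00175. It was -2.37 with C and D only, and the difference of A by itself from the 12249 µg/L mean was -2.08. The gene averaged 4.23 ± 0.27 in the control, 4.20 ± 0.28 at 784, 4.76 ± 0.42 at 1960 and 6.16 ± 0.61 at 4900 µg/L (SD, n = 5 each). Its libraries at 30623 µg/L, at 4.11 ± 0.20 (SD, n = 3), overlapped the control libraries, which ranged from 3.96 to 4.61.

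Rsub_02324 followed a like course with A set apart. It was 6.75 in A, 5.42 in C and 5.34 in D at 30623 µg/L, against 8.56 in A, 8.39 in B and 7.44 in C at 12249 µg/L. A lay between C and D and the lowest 12249 µg/L library. The log2 difference was -2.29 ± 0.38 (SE), 4.89-fold lower, and limma gave an adjusted p of 0.00344, and it was -2.75 ± 0.32 (SE) with C and D only. The gene averaged 5.75 ± 0.27 in the control, 6.33 ± 0.13 at 314, 5.62 ± 0.36 at 1960 and 7.88 ± 0.44 at 4900 µg/L (SD, n = 5 each). At 30623 µg/L, C and D were level with or below the lowest control library, 5.42, and A was above the highest, 6.11.

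Rsub_08582 had the highest rise of the rule. It was 5.57 in A, 6.47 in C and 6.77 in D at 30623 µg/L, against 3.58 in A, 4.47 in B and 5.07 in C at 12249 µg/L. The libraries at 12249 µg/L spread widely, and A at 30623 µg/L was the library nearest to them. The log2 difference was 1.89 ± 0.39 (SE), 3.71-fold higher, and limma gave an adjusted p of 0.0138, and it was 2.24 ± 0.38 (SE) with C and D only. The gene averaged 5.02 ± 0.33 in the control, 5.42 ± 0.39 at 1960 and 4.67 ± 0.86 at 4900 µg/L (SD, n = 5 each), so that its 12249 µg/L mean of 4.38 was the lowest of all groups.

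Rsub_11699 was a weakly expressed gene in every other group. It was 4.20 in A, 4.54 in C and 5.57 in D at 30623 µg/L, against 2.80 in A, 3.00 in B and 2.87 in C at 12249 µg/L. The 12249 µg/L libraries lay close to each other, and D at 30623 µg/L was the highest of all libraries. The log2 difference was 1.88 ± 0.38 (SE), 3.67-fold higher, and limma gave an adjusted p of 0.0134. With C and D only it was 2.16 ± 0.40 (SE). The group means from the control to 4900 µg/L ran from 2.74 ± 0.41 at 125 to 3.40 ± 0.61 at 1960 µg/L (SD, n = 5 each).

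These single calls depended on which libraries were used. Over 17 other settings with at least 2 libraries on each side for Rsub_08582 and Rsub_11699, the adjusted p in limma's test ranged between 2.04e-10 and 0.174 and between 1.84e-05 and 0.17, and 13 settings kept each call. Rsub_08035 kept its call in 15 of 17 settings, with an adjusted p between 1.14e-10 and 0.0815. Rsub_02324 kept it in 15 of 18, between 3.97e-20 and 0.199. The lowest values of Rsub_08582, Rsub_08035 and Rsub_02324 came from the unplanned fit without A at 30623 and C at 12249 µg/L. With the replicate letter as a block in all libraries, the 4 genes kept their calls. Calls of the 4 genes were lost without A at 12249 µg/L and with the letter as a block in the 6 libraries. The 2 genes that rose also lost them without C or D at 30623 µg/L, and Rsub_02324 without C. With A as the only library at 30623 µg/L all 4 calls were lost, with a limma adjusted p of 0.789 for Rsub_08582, 0.74 for Rsub_11699, 0.614 for Rsub_02324 and 0.428 for Rsub_08035. No setting turned the direction of any of the 4.

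**Figure D5:**
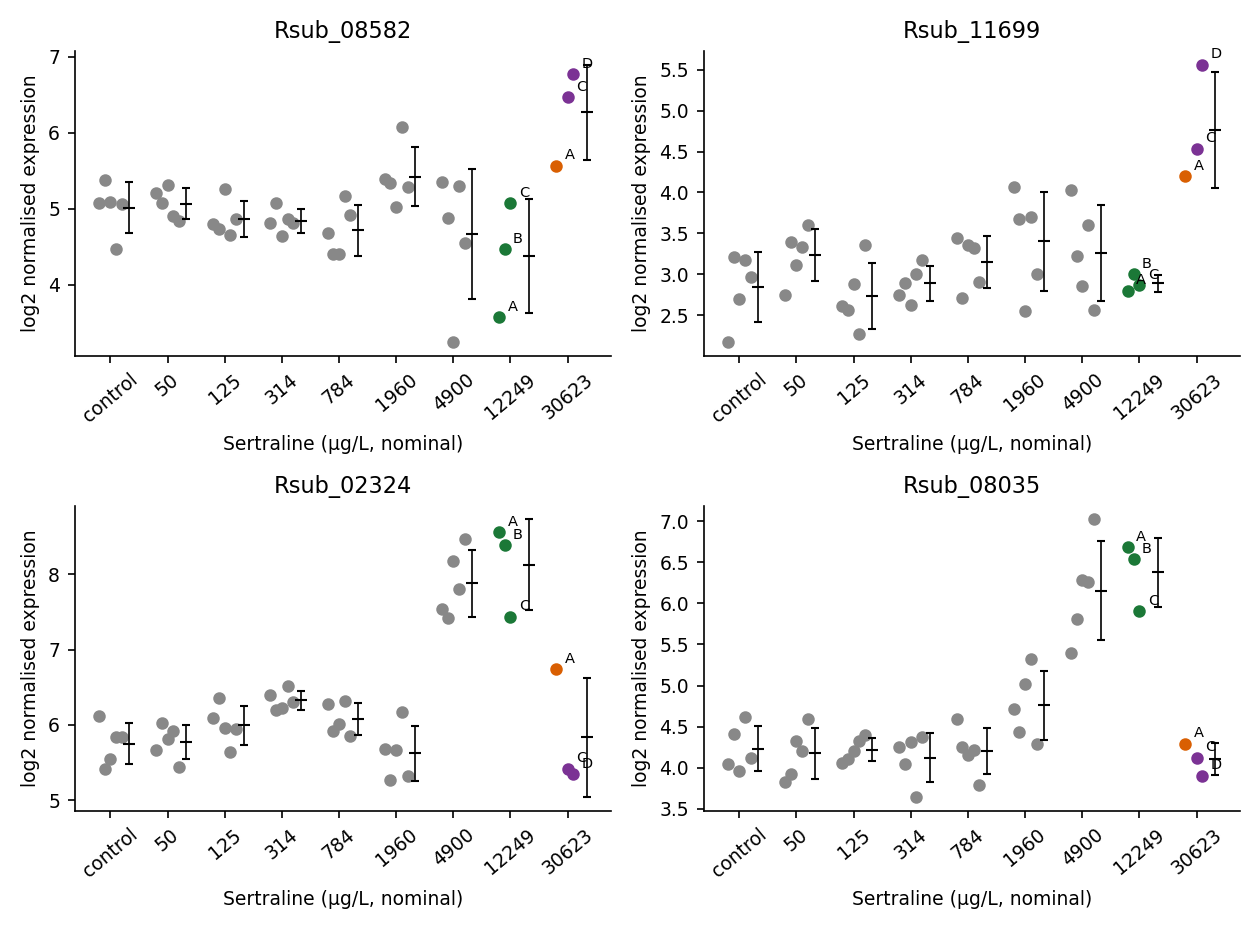
log2 normalised expression of the 4 genes in each library (points) by nominal concentration in µg/L, with letters for the 6 libraries of the step and bars for the mean and SD of each group. The lower 2 panels show genes raised at 4900 and 12249 µg/L whose C and D libraries at 30623 µg/L lie near control values, and the upper 2 show genes that are highest at 30623 µg/L.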

How the data were processed

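Messenger RNA was profiled from poly(A) tails with a 3′ kit that carries molecular identifiers (QuantSeq), per the labels' protocols. The authors deposited 1 table with 41 libraries and 7291 genes, whose normalised log values were taken as log2. The submitters' processing notes name STAR 2.7.10a, featureCounts 2.0.6, DESeq2, fastp 0.23.2, bcl2fastq 2.20.0 and SAMtools 1.15.1. Not given in the sources used here are the transform, genome build, gene filter and use of the identifiers. If the base is not 2, every fold changes. Without counts, neither depth nor counting intervals can be given.

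The step was fitted on its 6 libraries alone in limma 3.58.1 (R 4.3.3; eBayes with an intensity trend; degrees of freedom 4 residual and 29.2 prior), two-sided, with no filter and Benjamini-Hochberg adjustment over 7291 genes. The fits of C and D, of 4900 and of 1960 µg/L against the control used their own libraries, and those against the control were added after the data had been seen. Also not planned beforehand were the fit without A at 30623 and C at 12249 µg/L and the fit with A as the only library at 30623 µg/L. The genes named are the 2 highest and 2 lowest called differences with separated groups. The fit was tested on simulated data. Gene lists based on product names could not be used. The members and lists were chosen with earlier results of these data known. Descriptive values and figures used Python 3.11.15 and matplotlib 3.10.9.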

Additional observations from a re-analysis of the deposited data

Results flagged for a closer look

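Over the 109 genes that fell at the step, the library of replicate D in the 125 µg/L group had a median log2 difference from the control mean of -0.126, against -0.026 to 0.0053 in the other 4 libraries of its group. It was the only library to stand far from its group among 56 groups of values examined, where chance gives about 2.8. Groups of 3 libraries, which include both groups of the step, were too small for this rule.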

How the results depend on the processing

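Counts over the 6 libraries are given as genes higher and genes lower at 30623 µg/L, beside the 102 and 109 reported. They were 942 and 1147 with all libraries setting the spread, 895 and 1091 with the treated libraries, and 116 and 167 with the 3 highest concentrations. Array quality weights, which gave A at 30623 µg/L the lowest weight (0.373), called 974 and 912. There were 90 and 70 without the intensity trend, 50 and 31 under quantile scaling, and 11 and 91 with only those genes tested whose mean reached 5. Leaving out 1 library gave 0 to 737 higher and 0 to 857 lower. A at 30623 µg/L alone called 0 and 0 (458 at an unadjusted p under 0.05 in limma), but with a single library on one side, assumed to vary like the others, few calls could be made. Leaving out A at 30623 and C at 12249 µg/L together, which was not planned beforehand, called 1016 and 1180. Robust moderation and centring left both counts within 1.5 times. A minimum size of 1 could not change them, because no called difference was smaller than 1.18. The cause of these movements was not tested, except that the filter left fewer genes. For C and D only, all libraries but A setting the spread gave 1342 higher and 1602 lower.

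Only the letters A and C are shared by both groups, and the labels do not say that a letter marks a shared well or day. Deviations from the group means correlated at 0.104 for A and -0.010 for C. Pairs of unlike letters ran from -0.11 to 0.084, so the value for A was the highest. With so few shared letters, these values cannot settle whether a letter marks a shared well or day. With the letter as a replicate block, limma called 0 higher and 0 lower in the 6 libraries (1 residual degree of freedom; 733 genes at an unadjusted p under 0.05) and 890 and 1107 in all libraries.

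The median step in the highest of 10 level bins was -0.065 under quantile scaling. For the genes that fell, the median of 4900 µg/L minus control was 0.15 when all libraries set the spread and 0.26 when A at 30623 µg/L was left out, against 0.61. The difference in range was -0.11 (p = 0.30, exact permutation test) among genes with a mean that reached 5. The direction of the level pattern, of the narrower range and of the positions of the 6 libraries did not turn under the alternatives run.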

Other observations

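Medians were also taken over the larger sets called with C and D only. The 857 lower genes had a median log2 difference from the control mean of -0.031 at 1960, 0.26 at 4900, 0.63 at 12249 and -0.30 at 30623 µg/L, and in A at 30623 µg/L the median was 0.34, still above the control. The 737 higher genes had medians of 0.20 at 1960, -0.013 at 4900, -0.14 at 12249 and 0.87 at 30623 µg/L, with 0.27 in A. Their medians at 4900 and 12249 µg/L lay slightly below the control, while those of the 102 genes, 0.12 and 0.055, lay slightly above it. For the 102 genes, single libraries fell on both sides, from -0.43 to 0.41 at 4900 and from -0.24 to 0.078 at 12249 µg/L. For the 737 genes they ran from -0.38 to 0.22 at 4900 and from -0.36 to -0.0065 at 12249 µg/L.

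Across all 7291 genes the step of C and D correlated at -0.23 with the difference between 4900 µg/L and the control, and the difference of A at 30623 µg/L from the 12249 µg/L mean at -0.089. The comparisons share no library, but they share the genes and one normalisation, and genes are not independent replicates.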
